A study of Mus musculus with 8 samples.

Results

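PI3K and phosphoinositide phosphatase genes were examined in leukemic bone marrow cells with and without Ikzf2, the gene of the Ikaros family zinc finger factor Helios. The group holds 9 genes chosen by symbol out of 24421 in each deposited file: the phosphatase genes Inppl1, Inpp5d, Inpp4a and Inpp4b, and the PI3K subunit genes Pik3ca, Pik3cd, Pik3cg, Pik3r1 and Pik3r5. They were taken up because Inppl1 was far lower in both KO libraries, so the contrast of KO with WT chose them, and their values in it are given as a description. RNA-seq was made from 2 WT libraries, from Ikzf2f/f mice, and 2 KO libraries, from Ikzf2Δ/Δ mice. All 4 came from C57BL/6 marrow cells transformed with the fusion oncogene MLL-AF9, frozen, thawed and sorted for high c-KIT, the stem cell factor receptor. The WT cells therefore carried the floxed allele too. The labels name neither the Cre driver nor the age of the mice, and they do not say whether replicates came from separate animals. The KO libraries differed in sex-linked transcripts (given below), so these are not repeats of 1 donor, while for the WT libraries the spread may be technical.

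Class I PI3K enzymes phosphorylate the membrane lipid PIP2 to PIP3, which recruits the kinase AKT and other proteins with lipid-binding domains. Lipid phosphatases act against the kinases: the SHIP enzymes remove a phosphate from PIP3, and the INPP4 enzymes act on the product of the SHIP enzymes. Blood cells are known for their use of the δ and γ isoforms of the catalytic subunit and of SHIP1, while SHIP2, the product of Inppl1, is made in most tissues.

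Gene counts per library ranged from 16006081 to 19286090. Ikzf2 itself had 283 and 271 CPM (a count scaled by library total, here after TMM scaling) among the WT libraries, against 10.9 and 26.5 CPM among the KO libraries. KO replicate 1 stood apart in the X-inactivation RNA Xist, at 832 CPM against 0.35 to 0.60 in the others, and in the Y-linked gene Ddx3y, at 0.062 CPM against 109 and 102 CPM (WT) and 70.0 CPM (KO replicate 2). This is the pattern of female cells in KO replicate 1 and of male cells in the other libraries, so sex differs within KO and between KO and WT. Values without KO replicate 1, given below, compare male-pattern libraries alone. Markers of immature myeloid cells (8 of 8 detected, among them Kit, Hoxa9 and Spi1) summed to 3071 and 3236 CPM (WT) against 2912 and 3188 CPM (KO). The T and NK cell markers were under 1 CPM in 8 of 8 cases, 7 of 8 B cell markers were too, and 5 of 8 erythroid markers, the 4 globin genes included, had no read in any library. Markers of maturing neutrophils, 10 genes, summed to 850 and 3949 CPM (WT) against 12907 and 18400 CPM (KO), and for 7 of them each KO value exceeded each WT value. Monocyte markers summed to 2093 and 1081 CPM (WT) against 1812 and 1601 CPM (KO), without separation. Most of each sum was Ly6c2, at 1931 and 855 CPM (WT) against 1257 and 1206 CPM (KO). Of the 8 monocyte markers 4 were higher in both KO libraries and 0 were lower in both. By DESeq2 4 neutrophil markers (Ngp, Lcn2, S100a8 and S100a9) and 2 monocyte markers rose: F13a1, from 25.4 and 14.6 to 232 and 154 CPM, and Csf1r, from 34.0 and 51.5 to 135 and 90.8 CPM (adjusted p = 1.55e-12 and 0.0133). The mast cell list marker Gata2 fell, from 74.3 and 234 to 14.03 and 49.2 CPM, as did the stromal list marker Pdgfrb, from 114 and 44.2 to 6.12 and 17.5 CPM (DESeq2 adjusted p = 0.0459 and 0.00234), and edgeR called none of these 8 genes. Gata2 does not stand for its list. Ms4a2 was higher in both KO libraries, and Cpa3, Mcpt8 and Prss34 overlapped, with log2 fold changes of 0.25, 0.62 and 1.44. Pdgfrb is not read as a measure of stromal cells either, as 5 of the 8 stromal list markers were under 1 CPM in all libraries. Of the 8, 5 were lower in both KO libraries, Pdgfrb and Pecam1 among them, and 1, Col1a1, was higher in both. The part of the cell type markers in the results below was not tested. These are bulk samples, so more transcript per cell and more cells of a type cannot be told apart.

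Across the 9 genes, Inppl1 was the one with a clearly lower level in KO, and Pik3r5, a regulatory subunit of the γ enzyme, the one with the largest higher level. Inpp4b did not pass the filter on low counts, so 8 of the 9 were fitted. By edgeR's quasi-likelihood test with Benjamini-Hochberg adjustment over 12623 genes, 0 of the 8 had an adjusted p under 0.05 (0% of all genes had). At an unadjusted p under 0.05 it was 3 of 8 (7.67% of all genes). DESeq2 called 2 of the 8 (2.62% of all genes with an adjusted p): Pik3r5 as higher (1.56% were) and Inppl1 as lower (1.07% were). Both KO libraries lay above both WT libraries in 4 of the 8 (18.1% of all tested genes) and below them in 2 (19.1%). As this contrast chose the genes, nothing is read from these counts.

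**Figure D1:**
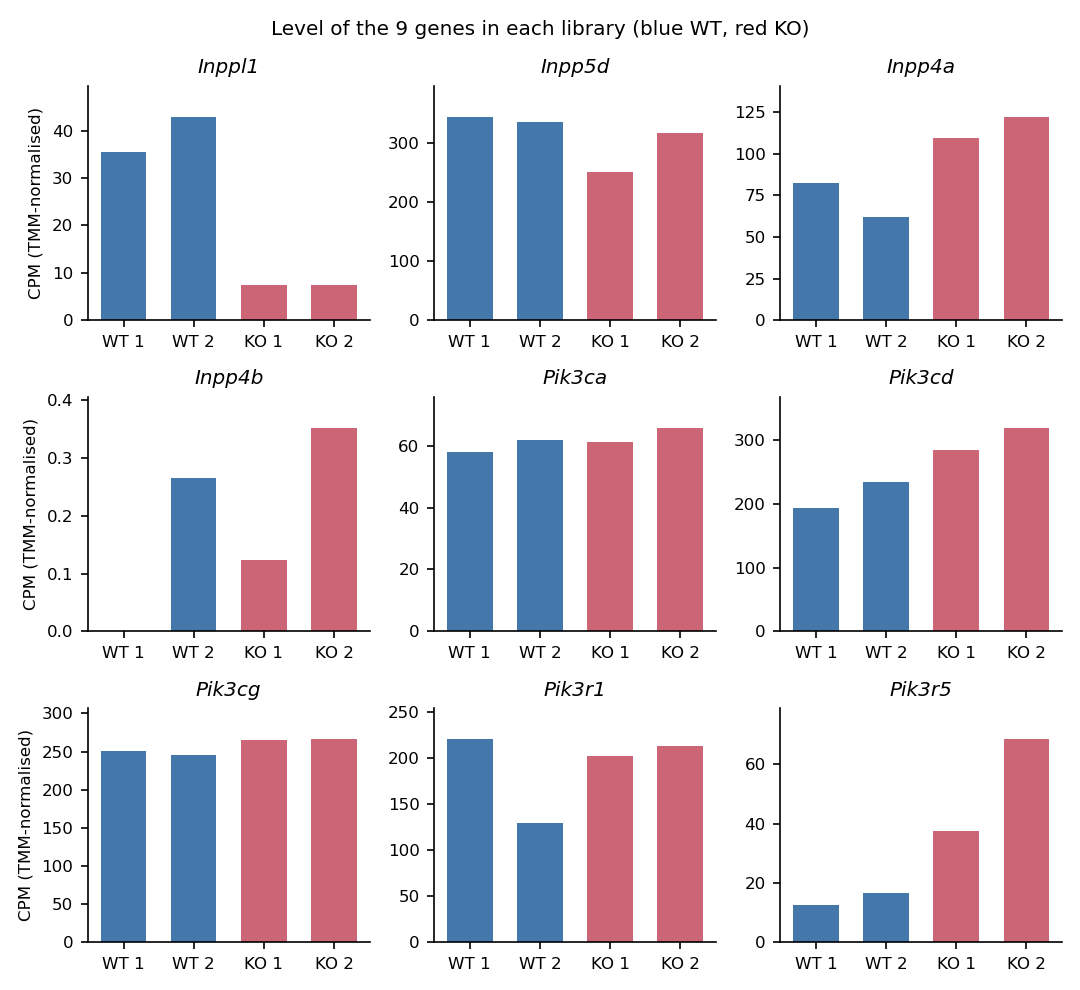
CPM after TMM scaling (vertical axes, each from 0) of the 9 genes in the 4 libraries, blue for WT and red for KO, 1 bar per library. Inppl1 stands at 35.5 and 42.9 CPM (WT) against 7.48 and 7.39 CPM (KO), and Pik3r5 at 12.5 and 16.7 CPM (WT) against 37.3 and 68.6 CPM (KO).

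Inppl1 (chromosome 7, 101822632 to 101838226, GRCm38.p6, the assembly that mm10 names) encodes SHIP2, a 5-phosphatase of PIP3. It had 710 and 810 reads in WT and 121 and 126 reads in KO, or 35.5 and 42.9 CPM against 7.48 and 7.39 CPM. The groups did not overlap, and the KO libraries were nearly equal. The means were 39.2 ± 5.27 CPM in WT and 7.44 ± 0.0627 CPM in KO (SD, n = 2 each), and the log2 fold change was -2.40 (SE 0.28), a 5.27-fold lower level. Without KO replicate 1, the library apart in Xist, it was -2.40, and without KO replicate 2 it was -2.39. Within replicate numbers 1 and 2 the difference in log2 CPM was -2.23 and -2.52.

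The gene neighbours of Inppl1 differed from it. Its end overlaps 95 bases of Phox2a, which had 1 to 4 reads per library, and its start overlaps 1969 bases of the antisense long noncoding gene Gm10602, which the files do not count. No source used here gives the strand setting of the counting, so reads of an antisense gene could not be told from those of Inppl1. The nearest tested gene towards lower coordinates, the mitochondrial chaperone gene Clpb, 27171 bases away, had 35.7 and 32.7 CPM (WT) against 19.2 and 24.3 CPM (KO) (log2 fold change -0.65, SE 0.26, edgeR adjusted p = 0.651). Next on that side, at 309802 bases, lay the phosphodiesterase gene Pde2a, with a log2 fold change of 0.79 (SE 0.37, edgeR adjusted p = 0.718). Towards higher coordinates, Anapc15 and Tomt had -0.24 (SE 0.27) and -0.07 (SE 0.43).

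The sequence before the gene start is shown for Inppl1 and Pik3r5, the members with the lowest and the highest fold change, and for Inpp5d, the paralog of Inppl1, because the deleted factor belongs to a family that binds the core motif GGGAA. Each run is the 250 bases before the start site, 5′ to 3′ on the gene's strand, from RefSeq on GRCm38.p6, with GGGAA on either strand (TTCCC on the other) in capitals.
Inppl1, chr7:101838227-101838476, minus strand: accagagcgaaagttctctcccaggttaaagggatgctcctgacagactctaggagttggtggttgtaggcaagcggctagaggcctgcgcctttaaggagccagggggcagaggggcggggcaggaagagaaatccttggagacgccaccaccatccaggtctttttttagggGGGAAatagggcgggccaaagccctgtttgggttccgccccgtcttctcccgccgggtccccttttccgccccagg
Inpp5d, chr1:87620062-87620311, plus strand: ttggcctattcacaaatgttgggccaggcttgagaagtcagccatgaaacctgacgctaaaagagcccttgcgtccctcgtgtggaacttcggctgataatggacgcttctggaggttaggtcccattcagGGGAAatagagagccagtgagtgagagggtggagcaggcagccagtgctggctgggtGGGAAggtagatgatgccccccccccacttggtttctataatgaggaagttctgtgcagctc
Pik3r5, chr11:68431875-68432124, plus strand: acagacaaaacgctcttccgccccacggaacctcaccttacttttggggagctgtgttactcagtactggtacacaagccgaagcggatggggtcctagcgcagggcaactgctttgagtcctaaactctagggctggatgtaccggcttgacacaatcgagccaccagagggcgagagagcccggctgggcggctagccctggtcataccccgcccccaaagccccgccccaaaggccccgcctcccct
The Inppl1 window held 1 match, the Inpp5d window 2 and the Pik3r5 window 0. A window at another start site of Inppl1 held 0. Of the 9 genes, all in the promoter table, 5 had a match in at least 1 of their 16 windows, and 6 of the 16 windows had one. Over all 32851 windows of this length the share was 56.2%, so a match is common. No other motif was searched, and a match or its absence shows only which letters are there.

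Inpp5d (chromosome 1, 87620312 to 87720510) encodes SHIP1, the blood cell relative of SHIP2. It stood at 345 and 336 CPM (WT) against 251 and 318 CPM (KO). Both KO values lay below both WT values, but KO replicate 2 lay close to WT. The log2 fold change was -0.26 (SE 0.23), and it was -0.097 without KO replicate 1 and -0.44 without KO replicate 2. Because both genes were counted in the same library, the ratio of their reads needs no scaling between libraries, although without exon lengths it is no ratio of transcripts. There were 9.71 and 7.82 Inpp5d reads per Inppl1 read in WT and 33.6 and 43.0 in KO (8.77 ± 1.34 and 38.3 ± 6.62, mean ± SD, n = 2 each). The groups did not overlap, and the log2 difference of the ratio was 2.12. Inppl1 was chosen for its lower level in KO, so this gap mostly restates that choice and is no separate result.

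**Figure D2:**
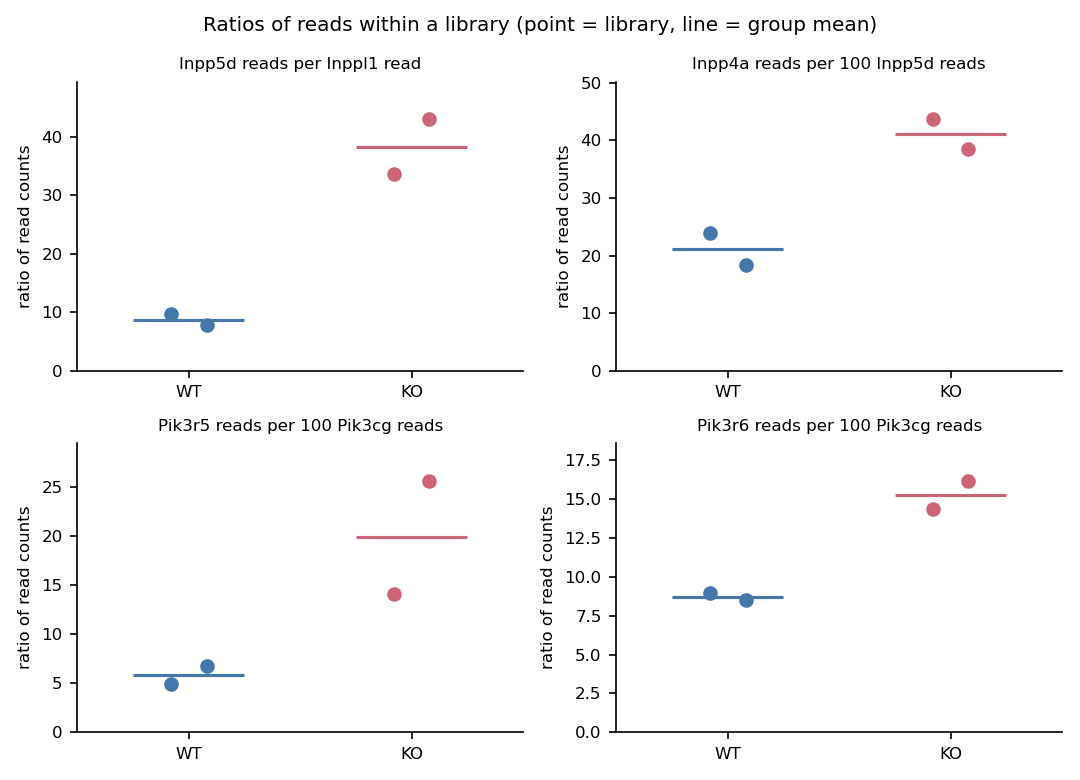
Ratios of raw read counts within a library (vertical axes, each from 0) for 4 pairs of genes, by genotype; each point is a library and each line a group mean. Inpp5d reads per Inppl1 read go from 9.71 and 7.82 in WT to 33.6 and 43.0 in KO. This mostly restates the fall of Inppl1, which chose the group. In each of the other 3 ratios both KO points also lie above both WT points. Each of the 4 pairs holds a gene whose own groups did not overlap, so nothing more is read from this. The ratio of Pik3r1 to Pik3cd reads, not drawn, overlapped between the groups.

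The INPP4 enzymes act a step below the SHIP enzymes. Inpp4a (chromosome 1, 37299827 to 37410740) had 82.4 and 62.0 CPM (WT) against 110 and 122 CPM (KO). The groups did not overlap, with means of 72.2 ± 14.5 and 116 ± 8.90 CPM (SD, n = 2 each) and a log2 fold change of 0.68 (SE 0.22). Leaving out a library moved it between 0.51 and 0.91. Inpp4a reads per 100 Inpp5d reads were 23.9 and 18.4 in WT and 43.6 and 38.5 in KO. Inpp4a was higher and Inpp5d lower in both KO libraries, so this gap restates their levels and is no separate result. Inpp4a overlaps 19796 bases of the antisense gene 4930439A04Rik, which the files do not count.

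Inpp4b (chromosome 8, 81342266 to 82134312), the relative of Inpp4a, had 0 and 5 reads in WT and 2 and 6 reads in KO. A count of 3 was worth 0.150 to 0.185 CPM, depending on the library. The count of 0 in WT replicate 1 therefore allows a level of up to 0.150 CPM, for counting error only. Inpp4b was at the limit of detection at this depth, and no fold change is given.

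Among the catalytic subunits, those of the δ and γ isoforms are the ones enriched in white blood cells. Pik3cd (chromosome 4, 149649168 to 149702566), which encodes p110δ, had 194 and 234 CPM (WT) against 285 and 320 CPM (KO). The groups did not overlap, with means of 214 ± 28.7 and 303 ± 24.7 CPM (SD, n = 2 each) and a log2 fold change of 0.50 (SE 0.22). Pik3cg (chromosome 12, 32173397 to 32208677), which encodes p110γ, had 251 and 246 CPM (WT) against 265 and 267 CPM (KO). Its KO values lay above its WT values by a small margin, with a log2 fold change of 0.10 (SE 0.20). Pik3cd reads per 100 Pik3cg reads were 77.3 and 95.5 in WT and 108 and 120 in KO.

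Pik3ca (chromosome 3, 32397065 to 32466112), which encodes the widely made p110α, had 57.8 and 61.7 CPM (WT) against 61.0 and 65.8 CPM (KO). The groups overlapped, and the log2 fold change was 0.09 (SE 0.20). Pik3cb, the gene of p110β and no member of the group, also overlapped, at 60.7 and 87.3 CPM (WT) against 70.8 and 112 CPM (KO). Its log2 fold change, 0.31 (SE 0.31), was -0.063 without KO replicate 2. Pik3cd reads per 100 Pik3ca reads were 335 and 380 in WT and 468 and 487 in KO.

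Regulatory subunits of the p85 type hold their catalytic subunits in check and bring them to receptors. Pik3r1 (chromosome 13, 101680761 to 101768217), which encodes p85α and its shorter forms, had 221 and 129 CPM (WT) against 202 and 213 CPM (KO). The KO values lay between the WT values, and the log2 fold change of 0.24 (SE 0.31) was 0.68 with WT replicate 1 out and -0.079 with WT replicate 2 out. The gap between the WT libraries was -0.77 in log2 CPM, against a median size of 0.27 over all tested genes. Pik3r1 reads per 100 Pik3cd reads overlapped between the groups, at 114 and 55.2 in WT and 70.8 and 66.6 in KO. Pik3r2, which encodes p85β, had 55.8 and 57.4 CPM (WT) against 31.2 and 53.0 CPM (KO) (log2 fold change -0.43, SE 0.31, edgeR adjusted p = 0.856), and without KO replicate 1 the value was -0.091.

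Pik3r5 (chromosome 11, 68432125 to 68497849) encodes p101, a regulatory subunit of p110γ that answers G protein-coupled receptors. It had 250 and 315 reads in WT and 604 and 1169 reads in KO, or 12.5 and 16.7 CPM against 37.3 and 68.6 CPM. The groups did not overlap, but the gap in log2 CPM was 0.88 between the KO libraries and 0.42 between the WT libraries. The median sizes over all tested genes were 0.43 (KO) and 0.27 (WT), so a wider gap in KO was not particular to Pik3r5. The means were 14.6 ± 2.97 and 53.0 ± 22.1 CPM (SD, n = 2 each), and the log2 fold change was 1.86 (SE 0.38), a 3.63-fold higher level. It was 1.35 without KO replicate 2 and 2.23 without KO replicate 1, and within replicate numbers 1 and 2 the difference in log2 CPM was 1.57 and 2.03. DESeq2 called it in 2 of the 4 fits that leave a library out, with adjusted p = 0.179 without WT replicate 1 and 0.149 without KO replicate 2. The libraries stood in the same order in the summed neutrophil markers given above, and the part of those cells in the Pik3r5 value was not tested.

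Pik3r6, which encodes p84, the other regulatory subunit of p110γ, lies 5169 bases beyond Pik3r5 and is described here although its values were seen first. It had 22.3 and 20.9 CPM (WT) against 38.0 and 43.1 CPM (KO), with no overlap. The log2 fold change was 0.91 (SE 0.23), with an adjusted p of 0.452 by edgeR and 0.0778 by DESeq2, so it passed neither. Leaving out a library moved the fold change between 0.81 and 0.998. On the other side of Pik3r5, at 224976 bases, Stx8 had a log2 fold change of -0.06 (SE 0.27). Pik3r5 reads per 100 Pik3cg reads went from 4.99 and 6.80 in WT to 14.1 and 25.7 in KO, and Pik3r6 reads per 100 Pik3cg reads from 8.92 and 8.51 to 14.4 and 16.2. In each KO library the reads of both regulatory subunits stood higher against those of the catalytic subunit than in either WT library.

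**Figure D3:**
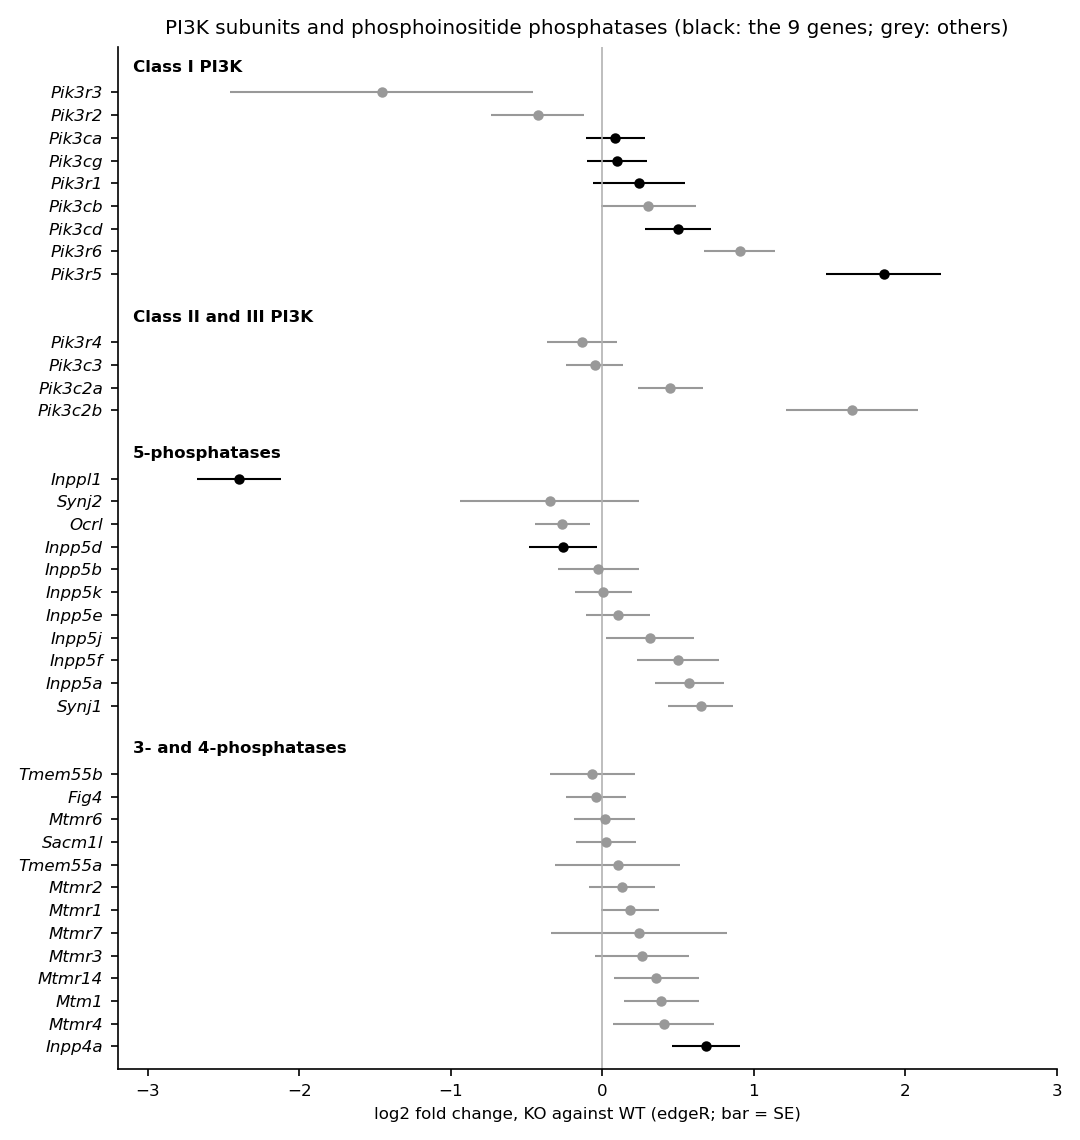
Log2 fold change of KO against WT by edgeR (horizontal axis; bars are SE, n = 2 libraries per group) for the tested PI3K subunits and lipid phosphatases, black for members of the 9 genes and grey for others. Inppl1 at -2.40 is the lowest of them and Pik3r5 at 1.86 the highest.

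Other genes of the pathway were compared from 9 lists, 112 genes without the members, of which 109 were tested. By edgeR 0 of 109 passed an adjusted p of 0.05 (0% of all genes), and 16 had an unadjusted p under 0.05 (7.67% of all genes). DESeq2 called 4 as higher (1.56% of all genes) and 1 as lower (1.07%): Cited2, Bcl2l11, Insr and Pik3c2b rose, and Dapp1 fell. With a WT library out, replicate 1 or replicate 2, DESeq2 called 1 and 6 of these genes, and with KO replicate 1 or KO replicate 2 out it called 2 and 6. These were mostly other genes: of the 5 genes called with all libraries, 0, 1, 1 and 3 were among them, in that order. The directions differed too, with 0 higher and 1 lower (WT replicate 1 out), 6 and 0 (WT replicate 2 out), 2 and 0 (KO replicate 1 out) and 2 and 4 (KO replicate 2 out). The median log2 fold change was 0.13, against -0.0043 over all tested genes, and it was -0.016 without KO replicate 2 and 0.25 without KO replicate 1. Both KO libraries lay above both WT libraries in 29 of 109 genes (18.1% of all) and below them in 13 (19.1%).

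The lists of lipid-modifying enzymes outside the group had medians near 0. Single genes lay farther out in both directions, such as Synj1 at 0.65 (SE 0.21) and Pi4k2b at -0.72 (SE 0.21) on the log2 scale. Of 9 other 5-phosphatases, 6 were above 0, with a median of 0.10 (-0.035 without KO replicate 2, while leaving out KO replicate 1 gave 0.25 and leaving out WT replicate 1 gave 0.22), and 0 passed edgeR or DESeq2. The 2 most abundant, Inpp5k and Ocrl, the gene mutated in Lowe syndrome, stood at 0.01 (SE 0.19) and -0.26 (SE 0.18) on the log2 scale, and Inpp5k at -0.056 with library sizes alone as scaling. Among 12 tested 3- and 4-phosphatases 10 were above 0, with a median of 0.16 (0.091, with 7 above 0, without KO replicate 1), and 0 passed either test, the count above 0 being 8 with library sizes alone. Their 2 most abundant were Mtmr3 and Mtmr6, which encode myotubularins. Mtmr3 had a log2 fold change of 0.26 (SE 0.31), but -0.18 without KO replicate 2. Mtmr6 had 133 and 133 CPM (WT) against 123 and 146 CPM (KO), with overlapping groups (log2 fold change 0.02, SE 0.20, and -0.052 with library sizes alone).

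Of 4 tested class II and III PI3K genes, Pik3c2b, a class II catalytic enzyme, rose by DESeq2 (adjusted p = 0.0282, edgeR adjusted p = 0.456). It had 4.90 and 4.29 CPM (WT) against 11.1 and 17.8 CPM (KO) (log2 fold change 1.65, SE 0.44). The groups did not overlap, yet DESeq2 called it in 0 of the 4 fits that leave a library out: adjusted p was 0.400 (WT replicate 1 out), 0.409 (WT replicate 2 out), 0.150 (KO replicate 1 out) and 0.579 (KO replicate 2 out). The class III enzyme gene Pik3c3 had 67.3 and 64.4 CPM (WT) against 62.8 and 64.4 CPM (KO). Of 11 kinases that make PIP2 and its precursors, 5 were above 0 (median -0.071), and 0 passed either test. The direction turned with the library left out: 8 of 11 were above 0 without KO replicate 1 (median 0.13) and 4 of 11 without KO replicate 2 (median -0.34). Their 2 most abundant, Pip5k1c and Pip4k2b, had -0.07 (SE 0.24) and -0.29 (SE 0.32), and without KO replicate 1 they had 0.16 and 0.077.

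Downstream of PIP3, the AKT, mTOR and FOXO list had 13 of 22 genes above 0 and a median of 0.11, with 0 past edgeR or DESeq2. Without KO replicate 1 the median was 0.26 (16 of 22 above 0), and without KO replicate 2 it was -0.00087 (11 of 22). DESeq2 called 2 genes of the list without WT replicate 2 and 1 without KO replicate 2. Akt1, the kinase gene with the most reads of the list, had 423 and 422 CPM (WT) against 334 and 412 CPM (KO) (log2 fold change -0.18, SE 0.22, but -0.034 without KO replicate 1 and -0.34 without KO replicate 2), and Gsk3a, a kinase that AKT inhibits, had 0.08 (SE 0.21). Of 18 genes listed as effectors of PIP3 and related lipids, 8 were above 0, with a median of -0.0064. It became 0.21 (13 of 18 above 0) without KO replicate 1 and -0.28 (6 of 18) without KO replicate 2, so the direction of this list rested on single libraries. Dapp1, an adaptor with a lipid-binding domain, fell in DESeq2 from 308 and 319 (WT) to 140 and 169 CPM (KO) (log2 fold change -1.02, SE 0.22, adjusted p = 0.00796, and 0.444 by edgeR). DESeq2 still called Dapp1 with KO replicate 2 out (adjusted p = 0.00476). The call was lost with WT replicate 1 out (0.574), with WT replicate 2 out (0.465) and with KO replicate 1 out (0.125). Its fold change lay between -1.17 and -0.89 in the edgeR fits with a library left out.

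Receptors and adaptors upstream of PI3K had 12 of 17 genes above 0 and a median of 0.25, which was 0.47 (14 of 17) without KO replicate 1 and 0.15 (10 of 17) without KO replicate 2. Insr, the insulin receptor gene, rose in DESeq2 from 58.2 and 56.1 (WT) to 99.2 and 108 CPM (KO) (log2 fold change 0.86, SE 0.19, adjusted p = 0.0334, and 0.444 by edgeR). It was called in 0 of the 4 fits that leave a library out, with adjusted p = 0.921 (WT replicate 1 out), 0.774 (WT replicate 2 out), 0.222 (KO replicate 1 out) and 0.266 (KO replicate 2 out), while the edgeR fold change stayed between 0.80 and 0.93.

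FOXO factors are held out of the nucleus by AKT, and the list of genes known as their targets had the highest median of the 9, 0.86 (-0.0043 over all tested genes). Of its 15 tested genes 12 were above 0 (49.5% of all), 9 had each KO value above each WT value (18.1% of all) and 1 had each below (19.1%). Without KO replicate 2 the median was 0.49, with 10 of 15 above 0. Cited2, a transcriptional coregulator, rose in DESeq2 from 164 and 212 (WT) to 438 and 441 CPM (KO) (log2 fold change 1.22, SE 0.23, adjusted p = 0.000882, and 0.444 by edgeR). It lost its call without WT replicate 1 (adjusted p = 0.467). Bcl2l11, which encodes the death-promoting protein BIM, rose in DESeq2 from 19.5 and 22.2 (WT) to 57.6 and 43.5 CPM (KO) (log2 fold change 1.28, SE 0.26, adjusted p = 0.00717, and 0.444 by edgeR), a call kept without KO replicate 2 (0.0266) and lost without WT replicates 1 and 2 (0.567 and 0.182) and KO replicate 1 (0.377). Insr, Irs2 and Pik3ip1 are in this list and in the list of receptors and adaptors. The list was compiled from general knowledge, but with earlier results of these data known. Its median and counts are therefore a description and no independent test. Its genes also have other regulators. The summed neutrophil markers were also higher in both KO libraries, and their part in the list's values was not tested.

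**Figure D4:**
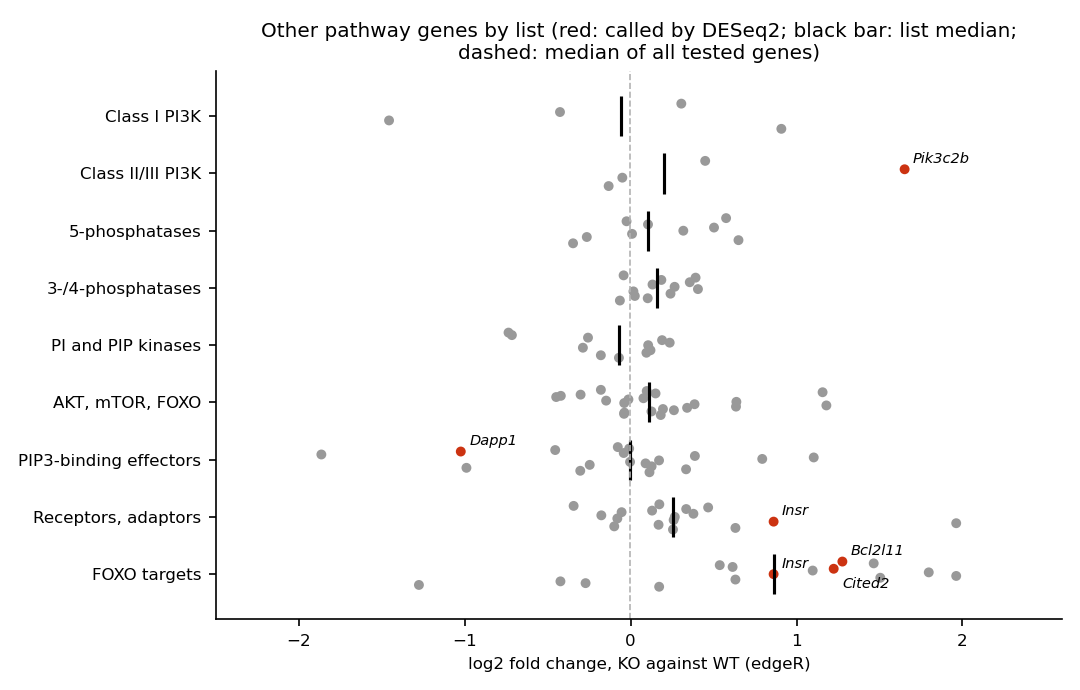
Log2 fold change of KO against WT by edgeR (horizontal axis) of the tested pathway genes outside the group, 1 row per list, with list medians as black bars, genes called by DESeq2 in red and the median of all tested genes dashed. The median of the FOXO target list, 0.86, lies farthest from the dashed line, and the medians of the enzyme lists lie near that line. The lists were chosen with earlier results of these data known. The effector row is not limited to genes of PIP3-binding proteins.

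The genes whose pattern over the 4 libraries was nearest to that of Inppl1 were sought among tested genes with a mean of at least 5 CPM. Predicted and unnamed genes were left out. The distance was the root mean square difference of centred log2 CPM. Since Inppl1 was lower in KO, genes near it are lower as well, and no test is given. Capn2, which encodes a calpain protease, was nearest at a distance of 0.10, with 36.0 and 49.2 CPM (WT) against 8.53 and 7.16 CPM (KO). Then came the ceramide synthase gene Cers4 (0.21), the cAMP-activated exchange factor gene Rapgef4 (0.24), the RNA helicase gene Ddx43 (0.25) and the acyltransferase gene Agpat3 (0.27). Agpat3, the most abundant of these 4, had 13.4 and 14.8 CPM (WT) against 3.96 and 3.70 CPM (KO). None of these 5 is on the chromosome of Inppl1.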

How the data were processed

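RNA-seq of 4 libraries (2 WT, 2 KO, grouped by sample title) was used, and 4 chromatin accessibility samples were not analysed here. The authors deposited raw counts for each gene symbol in 1 file a library. The submitters' processing notes name the tools Picard, MACS2, HTSeq, STAR 2.3.0 and Bowtie2 2.2.5 without their roles, and build mm10. Annotation and strand setting: not given in the sources used here. The 5 closing rows naming no gene held 69.3% to 72.4% of counts and were left out.

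Genes passing edgeR's default filterByExpr (12623) were scaled by TMM and tested with edgeR 4.0.16 (robust quasi-likelihood F-test, no covariate, Benjamini-Hochberg, threshold 0.05) in R 4.3.3. The SE is the fold change's size over the square root of F. DESeq2 1.42.0, limma 3.58.1 (voom), other scalings, no filter, no robust moderation, a replicate block and each library left out were alternatives. DESeq2 with a library left out, and list medians with a library left out, were added after seeing the data. The scripts were tested on simulated data. Log2 CPM used a prior count of 2.

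The members and lists were chosen with earlier results of these data known, and 1 gene of the lists is not reported here and was left out of their counts. Named genes are the members, up to 6 called genes per list (DESeq2's where edgeR called 0) or else the 2 most abundant, the 5 profile neighbours and the 2 nearest tested genes on each side of Inppl1. Planned levels per exon length were not computed, since no exon lengths were at hand, and ratios of reads within a library were used instead. With 2 libraries against 2 an exact permutation p cannot go below 0.333, so ratios have no test.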

Additional observations from a re-analysis of the deposited data

How the results depend on the processing

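The number of genes called over all genes, 0 by edgeR, was 4 with no filter on low counts, 352 by DESeq2, 11 with the replicate block and 0 to 156 with a library left out (50 without WT replicate 1, 156 without WT replicate 2), where a lone library was taken to vary as the other group does. It was 0 with the other scalings, voom and no robust moderation. DESeq2's 352 became 162 to 390 with a library left out. The Inppl1 log2 fold change ran from -2.53 to -2.24 with a library left out, and stayed within the replicate spread in the other settings. Its adjusted p was 0.332 by edgeR and 2.07e-09 by DESeq2. As this contrast chose Inppl1, neither value is a test of it. Of the other members edgeR called 0 and DESeq2 called 1, and of the other pathway genes DESeq2 called 5, a count that ran from 1 to 6 with a library left out.

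The replicate numbers are shared between the groups, but the labels do not say that they mark a batch. The deviations of same-numbered libraries correlated at 0.19 over genes, and with only 2 pairs this does not show a pairing. With the replicate block 0 members and 0 other pathway genes passed, and the Inppl1 value was -2.39.

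Values near 0 turned. With library sizes alone Inpp5k was at -0.056 and Mtmr6 at -0.052. With a library left out Pik3r1 ran from -0.079 to 0.68, Pik3cb from -0.063 to 0.61, Inpp5k from -0.046 to 0.079, Mtmr3 from -0.18 to 0.60, Mtmr6 from -0.12 to 0.14, Pip5k1c from -0.34 to 0.16, Pip4k2b from -0.77 to 0.077 and Gsk3a from -0.027 to 0.18. The causes were not tested. Depth limits only Inpp4b among the members.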

Other observations

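Several pathway genes had a wide gap between libraries of the same genotype. They were picked out after their values were seen. Klf2, a zinc finger factor gene of the FOXO target list, had 67.2 and 195 CPM (WT) against 38.1 and 704 CPM (KO). Cbl, a ubiquitin ligase gene that restrains receptor signalling, had 51.1 and 89.6 CPM (WT) against 18.4 and 140 CPM (KO). Foxo3 had 23.5 and 25.0 CPM (WT) against 6.00 and 30.2 CPM (KO). Flt3, a cytokine receptor gene often mutated in acute leukemia, had 248 and 153 CPM (WT) against 69.1 and 286 CPM (KO). Pik3ap1, an adaptor that recruits PI3K in blood cells, had 93.1 and 99.6 CPM (WT) against 46.9 and 133 CPM (KO). KO replicate 1 was the lowest of the 4 libraries and KO replicate 2 the highest in each of these 5 genes. The share of all tested genes with this order was not counted, so nothing is read from it. Over all tested genes the median size of the log2 CPM gap was 0.43 within KO and 0.27 within WT. KO replicate 1 was also the library with the female pattern, and the part of sex was not tested. Igf1r, a growth factor receptor gene, differed within WT instead, at 94.9 and 374 CPM, with 232 and 329 CPM in KO.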
